A study of Mus musculus with 48 samples.

Results

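Complement components and receptors were examined as 9 genes taken by symbol: the C1q chains C1qa, C1qb and C1qc, the components C4b and C3, the alternative pathway proteins Cfb and Cfp, and the receptors C3ar1 and C5ar1. All 9 were listed in both deposited count tables, among 20300 genes in a mixture of tumor, T and myeloid cells and among 14363 genes in sorted CD11b+ cells. Each gene was followed per library and across cells gated by fixed markers as microglia, macrophages, neutrophils, vascular and tumor cells.

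Complement is a protein cascade that tags cells and debris for uptake by phagocytes. In the classical pathway C1q binds a target and leads to cleavage of C4 and then of C3, while factor B and properdin serve the alternative pathway, in which C3 cleavage amplifies itself, and the small fragments C3a and C5a act on receptors of myeloid cells. In the brain, microglia are known as a major source of C1q, and C1q and C3 are known for tagging synapses that microglia remove.

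GL261 is a mouse glioma cell line, here carrying either a negative control hairpin RNA (shNC) or a hairpin RNA directed at Selp, the P-selectin gene (shSELP), and grown as brain tumors in C57BL/6 mice whose age the labels do not give. For the tumor mix, labelled day 16, CD11b+ cells, further CD45+ cells and the remaining suspension were combined in equal parts, with 2 libraries per group, so class sizes describe that mixture. The CD11b+ experiment, labelled day 21, had 1 library per group. Brains were pooled within a group, and the sources used here do not say whether each replicate library had its own pool, so p-values measure only the spread between libraries, which may be technical. The labels and the study's methods name different kit versions and collection days. Each library was sequenced as 8 entries, and in 7 of the shSELP entries of the CD11b+ experiment a description names the negative control, so the direction there rests on the other labels.

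Cells kept were 2183 of 2289 in shNC 1, 2179 of 2297 in shNC 2, 2190 of 2293 in shSELP 1 and 2174 of 2293 in shSELP 2. Before that filter the libraries held 22945972, 22626413, 17398121 and 25589350 UMIs (unique molecular identifiers, 1 per captured RNA molecule). The CD11b+ libraries kept 2731 of 2862 cells for shNC and 2804 of 2862 for shSELP, and held 12628177 and 11445676 UMIs before the filter. Cell barcodes found in more than 1 library numbered 5 in the mix and 3 in the CD11b+ experiment. Median UMIs per deposited cell were 9015, 7579, 5887 and 9388 in the mix and 4032 and 3685 in the CD11b+ libraries, so a CD11b+ cell carried fewer UMIs than a mix cell.

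A cell entered a class when it had UMIs of at least 3 of 8 fixed markers of that class and at least 2 more than of any other class, and class names below stand for cells with that likeness only. No complement gene was a marker. In the order shNC 1, shNC 2, shSELP 1, shSELP 2, gated macrophages numbered 877, 757, 508 and 805, microglia 69, 89, 258 and 112, and neutrophils 7, 12, 25 and 17. Vascular cells (endothelial and mural) numbered 26, 41, 426 and 99, tumor cells 267, 174, 43 and 44, and T cells 454, 458, 420 and 467. Macrophages thus formed the most numerous gated class in each mix library, and neutrophils rested on few cells. Cells exactly at the limit of the gate numbered 170, 129, 88 and 86 for macrophages, 16, 20, 28 and 22 for microglia, 47, 38, 16 and 21 for tumor cells, and 1, 7, 20 and 17 for vascular cells. The median gated macrophage had 6 of its own markers in each mix library, and the median microglial cell had 6, 6, 7 and 6 of its own with 1, 2, 1 and 1 of the macrophage list.

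Library shSELP 1 stood apart in composition: vascular cells made 19.5% of its cells, against 1.19% in shNC 1, 1.88% in shNC 2 and 4.55% in shSELP 2, and microglia made 11.8%, against 3.16%, 4.08% and 5.15%. In a comparison of groups, leaving out any library leaves 1 library in its group, which the fit assumes to vary like the other group, so calls made that way describe the fit and are no replicated test.

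Selp, the gene targeted by the hairpin, had 1, 1, 0 and 0 UMIs in gated tumor cells. The 3-UMI floor in shSELP tumor cells was 4.59 and 5.43 CPM (UMIs of the gene per 1000000 UMIs of the class), above the 0.237 and 0.339 CPM of shNC, so a knockdown could not be detected with these counts, and groups rest on the labels. In vascular cells, whose endothelial members can carry P-selectin, Selp stood at 46.5 and 38.8 CPM in shNC and 7.94 and 11 in shSELP. The hairpin was put into the GL261 cells before implantation, so these vascular values are no check of the knockdown. They rest on 26, 41, 426 and 99 cells and were not tested.

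The question across classes was which cells carried transcripts of each complement gene. By mean CPM over the mix libraries, and among these 5 classes and T cells, the 3 C1q chains and C3ar1 were highest in microglia, C4b in tumor cells (oligodendrocyte-like cells, outside this comparison, had more), C5ar1 in neutrophils, and Cfb and Cfp in macrophages. C3 had similar means in neutrophils (361 CPM, 3 libraries) and macrophages (352 CPM, 4 libraries). The ranges overlapped, and shNC 1, the lowest macrophage value of C3, has no neutrophil value, so these means give no order. Where a gene has 3 neutrophil CPM values below, the first is that of shNC 2. The content of that sum differed from the other neutrophil sums, as given with C5ar1. Classes were tested against macrophages with edgeR's quasi-likelihood test on 12171 genes and 23 sums of UMIs, with library as a term and adjusted p under 0.05 (Benjamini-Hochberg over all genes). In microglia 1 of 9 genes (C4b) was higher, where 14.7% of all genes were, and 3 of 9 (C3, Cfb, Cfp) were lower, where 19.9% were. In neutrophils 0 of 9 were higher (background 3.11%; DESeq2 called 1, C5ar1) and 6 of 9 were lower (background 16.4%), with 8 of 9 at an unadjusted p under 0.05 in either direction (31.3% of all genes). Genes called in neutrophils among all 12171 numbered 2378, and 1427 without shSELP 1 and 1548 without shSELP 2. In vascular cells 0 of 9 were higher (background 31.1%; DESeq2 also 0) and 9 of 9 lower (background 31.4%), each of the 9 being at an unadjusted p under 0.05, as were 65.4% of all genes. In tumor cells 1 of 9 (C4b) was higher (background 35.3%) and 8 of 9 were lower (background 33.9%). The lower values ranged from −2.15 (C4b) to −6.19 (Cfp) on the log2 scale in vascular cells and from −5.40 (C3) to −8.50 (C1qa) in tumor cells.

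Scaling moved these splits. By edgeR's scaling the median log2 difference of all genes was −0.08 in microglia, −1.30 in neutrophils, −0.03 in vascular cells and 0.03 in tumor cells. By DESeq2's size factors it was 0.21, 0.24, 0.64 and 0.66. Calls among all genes in microglia were 1792 higher and 2416 lower by edgeR and 2704 and 1341 by DESeq2. For neutrophils they were 379 and 1999 by edgeR and 1839 and 580 by DESeq2, for vascular cells 3783 and 3818 against 5831 and 2074, and for tumor cells 4292 and 4120 against 6432 and 2533. Neutrophil differences are therefore given as fitted, with the value relative to the median of all genes beside some of them. The p-values belong to the fitted values, and the relative values were not tested.

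**Figure D1:**
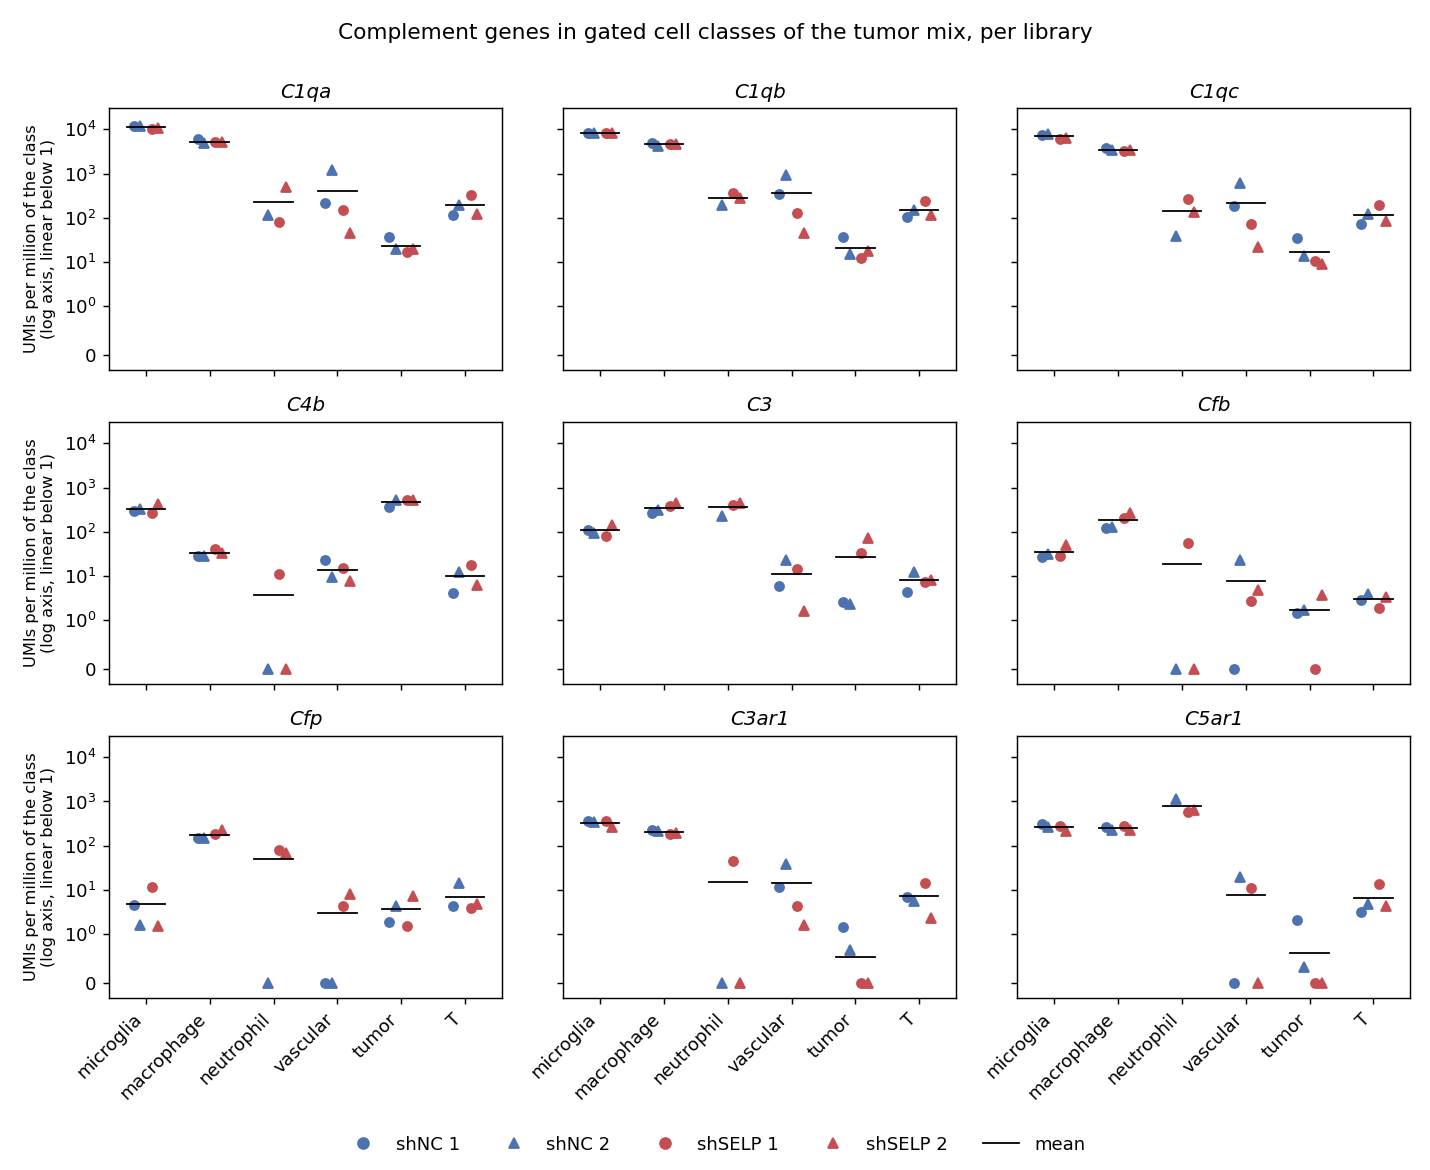
CPM of the 9 genes (1 panel each, axis linear below 1 and logarithmic above) in 6 gated classes of the mix, with shNC libraries in blue, shSELP in red, replicate 1 as circles, replicate 2 as triangles and black lines for the mean; only sums of at least 10 cells are drawn. Cfb and Cfp have their highest mean in macrophages (179.6 and 178 CPM), the C1q chains and C3ar1 in microglia, and C4b in tumor cells (478 CPM).

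C1qa, C1qb and C1qc encode the 3 chains of C1q, the recognition protein of the classical pathway. C1qa stood at 12051, 11738, 10124 and 10983 CPM in microglia and at 5920, 4905, 5225 and 5095 CPM in macrophages. Every microglial value was above every macrophage value, with means of 11224 ± 859.5 and 5286 ± 442 CPM (SD, n = 4). The same order without overlap held for C1qb (8208 ± 173 against 4606 ± 267 CPM) and for C1qc (6920 ± 801 against 3431 ± 253 CPM).

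The joint fit did not call these differences between microglia and macrophages. C1qa differed by 0.82 on the log2 scale (SE 0.50; edgeR adjusted p 0.219), C1qb by 0.57 (SE 0.43; edgeR adjusted p 0.336) and C1qc by 0.74 (SE 0.45; edgeR adjusted p 0.224). That fit estimates 1 spread per gene over 6 classes. With cells thinned to 2000 UMIs each the C1qa difference passed (log2 1.07, edgeR adjusted p 9.13e-06), as it did with cells carrying 3 or more markers of another class left out (1.01, 1.49e-05), with classes from clusters (0.89, 0.0208) and with no filter on low counts (0.92, 5.58e-06). Its adjusted p by DESeq2 was 0.208.

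Nearly all microglia carried C1q UMIs, while macrophages were split. With each cell thinned to 2000 UMIs, a C1qa UMI was found in 100%, 100%, 100% and 99.0% of microglia and in 83.2%, 71.4%, 79.6% and 77.1% of macrophages. Thinned T cells, which should lack the gene, gave 7.80%, 5.68%, 12.1% and 8.21%. Unthinned shares were 87.2%, 76.6%, 84.3% and 82.2% in macrophages (median depths 10980, 10351, 10110 and 16015 UMIs) and 22.0%, 17.2%, 22.9% and 23.3% in T cells (5734.5, 5691.5, 4979.5 and 7632 UMIs). Thinning left out 12, 10, 9 and 11 macrophages and 31, 18, 15 and 4 T cells. Macrophage shares were thus far above the T cell share in each library, and a part of the macrophages had no C1qa UMI at this depth. No marker list was made for monocytes, so the gated macrophages can include them, and their part in this split was not tested.

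The 3 chains were counted in similar proportions in macrophages, microglia and T cells. C1qa made between 38.9% and 40.5% of C1q UMIs in macrophages, between 41.7% and 43.6% in microglia and between 37.6% and 43.7% in T cells. In neutrophils C1qa had 116, 79.1 and 489 CPM in the 3 libraries with at least 10 cells, which overlapped the T cell values of 118, 198, 333 and 121 CPM. C1qa was lower in neutrophils than in macrophages by a fitted log2 value of −5.13 (edgeR adjusted p 1.50e-05), which is −3.84 relative to the median of all genes. Tumor cells had between 16.8 and 37.0 CPM, each below the lowest T cell value.

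C4b encodes a form of C4, the component cleaved after C1q binding, and its reads cannot be cleanly set apart from those of C4a, a near-identical copy that is not listed in either table, so its counts are uncertain. C4b stood at 365, 515, 517 and 514 CPM in tumor cells and at 290, 328, 266 and 430.2 CPM in microglia, and these ranges overlapped. In macrophages it had 28.6, 27.7, 40.8 and 33.4 CPM, below each tumor and microglial value. Against macrophages C4b was higher in tumor cells (log2 3.13, SE 0.21) and in microglia (log2 3.09, SE 0.21, edgeR adjusted p 3.55e-12), in 4 of 4 libraries each. A C4b UMI was found in 91.4%, 89.7%, 79.1% and 75.0% of tumor cells, and in 47.1%, 50.9%, 43.9% and 48.6% after thinning. T cells had 2.86%, 6.77%, 4.05% and 4.50% before and 2.36%, 2.27%, 1.98% and 1.51% after it. At equal depth the shares of shNC and shSELP tumor cells overlapped.

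C3 encodes the central component, whose cleavage both pathways share. Macrophages had 271, 315, 376 and 448 CPM of C3. Neutrophils had 233, 395 and 456 CPM in 3 libraries and overlapped macrophages, microglia had 109.7, 92.6, 82.1 and 146 CPM, below each macrophage value, and T cells had 4.35, 12.3, 7.29 and 7.91 CPM. C3 was lower in microglia than in macrophages by a log2 value of −2.0 (SE 0.36, edgeR adjusted p 6.53e-05), in 4 of 4 libraries. The neutrophil difference was fitted at −0.76 (SE 0.52, edgeR adjusted p 0.350) and not called, and it lay 0.54 above the median of all genes.

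Cfb encodes factor B, which supplies the protease of the alternative pathway convertase. C2 lies before it on the same strand and ends 85 bases from the start of Cfb, so reads running past the end of C2 could be counted for Cfb, and its counts are uncertain. Cfb stood at 121, 129, 204 and 265 CPM in macrophages and at 27.0, 30.6, 28.1 and 50.6 CPM in microglia, with no overlap (log2 −2.66, SE 0.23, edgeR adjusted p 3.67e-10). C2 had 4.54, 4.43, 5.54 and 5.09 CPM in macrophages, far below Cfb there, and 79.1, 127, 124 and 148 CPM in tumor cells. In microglia C2 had 36.1, 31.4, 13 and 49.8 CPM, which overlapped Cfb, and the part of C2 reads in the microglial Cfb values was not tested. Vascular, T and tumor cells had Cfb means of 7.50, 3.03 and 1.68 CPM.

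Cfp encodes properdin, which stabilizes that convertase. It stood at 152, 148, 184 and 229 CPM in macrophages and at 4.51, 1.57, 11.3 and 1.53 CPM in microglia. The microglial values overlapped those of T cells (mean 6.86 CPM, SD 5.11), and the difference from macrophages was −5.24 on the log2 scale (SE 0.37, edgeR adjusted p 6.50e-12). In neutrophils Cfp had 0, 79.1 and 67.5 CPM, and its lower call there (edgeR adjusted p 0.00833) did not hold with DESeq2 (adjusted p 0.0965).

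C3ar1, the receptor for C3a, was carried by microglia at 361, 347, 356 and 267 CPM and by macrophages at 225, 213, 183 and 191 CPM. The ranges did not overlap, and the difference of 0.44 (log2, SE 0.23) was not called (edgeR adjusted p 0.15). It passed under the same 4 alternatives as C1qa, with edgeR adjusted p between 0.00129 and 0.0222.

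C5ar1, the receptor for C5a that draws neutrophils and other myeloid cells, had 1125, 587 and 641 CPM in neutrophils. Microglia had 307, 263, 272 and 219 CPM and macrophages 260.2, 228, 272 and 222 CPM, which overlapped each other and lay below each neutrophil value. The 1125 CPM come from the 12 gated cells of shNC 2, whose content differed from the other neutrophil sums: the 8-gene neutrophil list summed to 14310 CPM there, against 122132 CPM in the 7 cells of shNC 1 and 126323 and 90214 CPM in shSELP. The difference between neutrophils and macrophages was fitted at 0.84 on the log2 scale (SE 0.31, edgeR adjusted p 0.0575) and was not called, and it lay 2.14 above the median of all genes. The log2 fold change of C5ar1 in neutrophils passed with DESeq2 (1.61, adjusted p 0.00753), and by edgeR with no filter on low counts (1.09, adjusted p 4.08e-05), with cells carrying 3 or more markers of another class left out (0.88, adjusted p 0.00172), without shSELP 1 (1.14, adjusted p 0.0232) and without shNC 1 (0.92, adjusted p 0.0267). Without shNC 2 it was 0.69 (edgeR adjusted p 0.254). Under the other alternatives its edgeR adjusted p ranged from 0.0757 to 0.199. In microglia against macrophages its log2 difference was −0.15 by edgeR and 0.10 by DESeq2, neither called.

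Genes with the most similar pattern were named by Pearson's r of log2(CPM + 10) over 24 sums (6 classes in 4 libraries) among 3006 genes. For C1qa these were C1qc (0.983), C1qb (0.982), Man2b1 (0.965), Ly86 (0.954) and Csf1r (0.949), so the other 2 chains came first. For C3 they were Syk (0.961), Rnf149 (0.935), Slc7a11 (0.927), Pilra (0.923) and Tnfaip2 (0.919). Cfb was closest to Ms4a7 (0.942), Ms4a6c (0.922), Ms4a4c (0.916), Apoe (0.909) and Tgfbi (0.906), of which Ms4a7, Ms4a4c and Tgfbi were macrophage gate markers. C4b was closest to Nav3 (0.933), Lap3 (0.920), Ckb (0.902), Ldhb (0.886) and Derl1 (0.854), and Cfp to Tgfbi (0.910), Ly6i (0.880), Pla2g7 (0.849) and Ms4a4c (0.80). Sums of 1 class share cell type and sums of 1 library share depth, so these values only describe likeness. The 24 sums included that of the 7 shNC 1 neutrophils, which was under the 10 cells needed for the fits.

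Of 47 further genes of the complement pathway, 37 were listed in the mix and 18 could be tested between classes. In microglia 7 were higher and 4 lower than in macrophages, in neutrophils 2 and 2, in vascular cells 10 and 6, and in tumor cells 7 and 8. The neutrophil numbers were 0 higher and 4 lower without shSELP 1, and 2 higher and 1 lower without shNC 2. By DESeq2 the numbers higher and lower were 8 and 3 in microglia, 3 and 0 in neutrophils, 10 and 4 in vascular cells and 7 and 8 in tumor cells. Among all 12171 genes, edgeR called 14.7% higher and 19.9% lower in microglia, 3.11% and 16.4% in neutrophils, 31.1% and 31.4% in vascular cells, and 35.3% and 33.9% in tumor cells. The most abundant per class included subunits of the complement receptors CR3 and CR4 in the myeloid classes: Itgam (416 CPM) and Itgb2 (278) in microglia, and Itgb2 (344), Itgam (210.4) and Itgax (129) in macrophages. Neutrophils had Itgam (357), Itgb2 (259) and Clu (181), the last with 542 CPM in shSELP 1 and 0 in the other libraries. Vascular cells had Vtn (1919), Cd93 (479) and Serping1 (217), and tumor cells C1qbp (240.2), Clu (177) and Serping1 (129.8), where Vtn, Clu and Serping1 encode complement inhibitors.

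The comparison of shSELP with shNC asked whether the complement genes differed between tumors of the 2 lines, class by class. In macrophages Cfb rose and the other 8 genes did not pass. In tumor cells C3 rose from very low levels. In microglia and vascular cells none of the 8 and 3 genes that could be tested passed by edgeR. Neutrophils had 1 shNC library, so their comparison says nothing about a lack of difference.

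In macrophages 1 of 9 genes was called, where 0.423% of 10864 genes were (46, with 21 higher and 25 lower; DESeq2 called 126, with 76 higher and 50 lower, and 3 of the 9 genes). The 46 became 136 without shNC 2, 127 without shSELP 1 and 153 without shSELP 2. Cfb had 121 and 129 CPM in shNC and 204 and 265 CPM in shSELP. Both shSELP libraries were above both shNC libraries, and Cfb rose by 0.97 on the log2 scale (SE 0.14, edgeR adjusted p 0.0410). Leaving out shNC 1 ended the call (log2 0.95, edgeR adjusted p 0.0709), as did a looser gate (0.94, 0.0732), and the log2 value ranged from 0.75 to 1.16 over the libraries left out.

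C3, Cfp and C4b were also higher in both shSELP libraries than in both shNC libraries without passing by edgeR. C3 had 271 and 315 CPM against 376 and 448 (log2 0.55, SE 0.12, edgeR adjusted p 0.114), and Cfp had 152 and 148 CPM against 184 and 229 (log2 0.52, SE 0.13, edgeR adjusted p 0.149). Both passed with DESeq2 (adjusted p 0.0129 and 0.0479). Without shSELP 1 the values were 0.69 for C3 (edgeR adjusted p 0.0334) and 0.68 for Cfp (edgeR adjusted p 0.0305), with the lone shSELP library assumed to vary like shNC. C4b, at 28.6 and 27.7 against 40.8 and 33.4 CPM, differed by 0.44 (SE 0.13, edgeR adjusted p 0.196). The C1q chains and the receptors had log2 values from −0.17 (C3ar1) to 0.07 (C1qb and C5ar1), none with an unadjusted p under 0.05. For C1qa, C1qb and C5ar1 the groups overlapped, and for C1qc and C3ar1 both shSELP libraries were below both shNC libraries.

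Shares of macrophages with a UMI moved the same way at equal depth. Thinned macrophages with a Cfb UMI made 21.4% and 19% in shNC and 31.1% and 37.2% in shSELP, against 0.236%, 0.682%, 0.247% and 0.216% of thinned T cells. For C3 they made 36.9% and 41.4% in shNC and 46.3% and 50.1% in shSELP, against 0.709%, 1.59%, 0.247% and 1.3% of T cells. In both cases each shSELP share was above each shNC share and all were far above T cells. Unthinned, Cfb was found in 61.8%, 64.7%, 72.6% and 84.8% of macrophages and 0.881%, 1.53%, 0.714% and 1.93% of T cells, and C3 in 74.8%, 82.3%, 81.9% and 91.6% of macrophages and 2.42%, 3.49%, 1.67% and 3.85% of T cells.

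Macrophages of the mix fell into 5 macrophage-like clusters. Cluster 18 (92, 42, 9 and 10 cells) was left out here, since a library needed at least 10 cells, and in 4 of the 4 others both shSELP libraries were above both shNC libraries for Cfb, for C3 and for Cfp. In cluster 1 Cfb had 135, 165, 270.1 and 314 CPM, and in cluster 8, where C1qa was low (566, 390.3, 575 and 302 CPM), Cfb had 102, 105, 183 and 152 CPM. C4b had this order in 2 of the 4 clusters. Clusters were drawn from the same cells, so they describe where the difference lay and are no separate test.

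**Figure D2:**
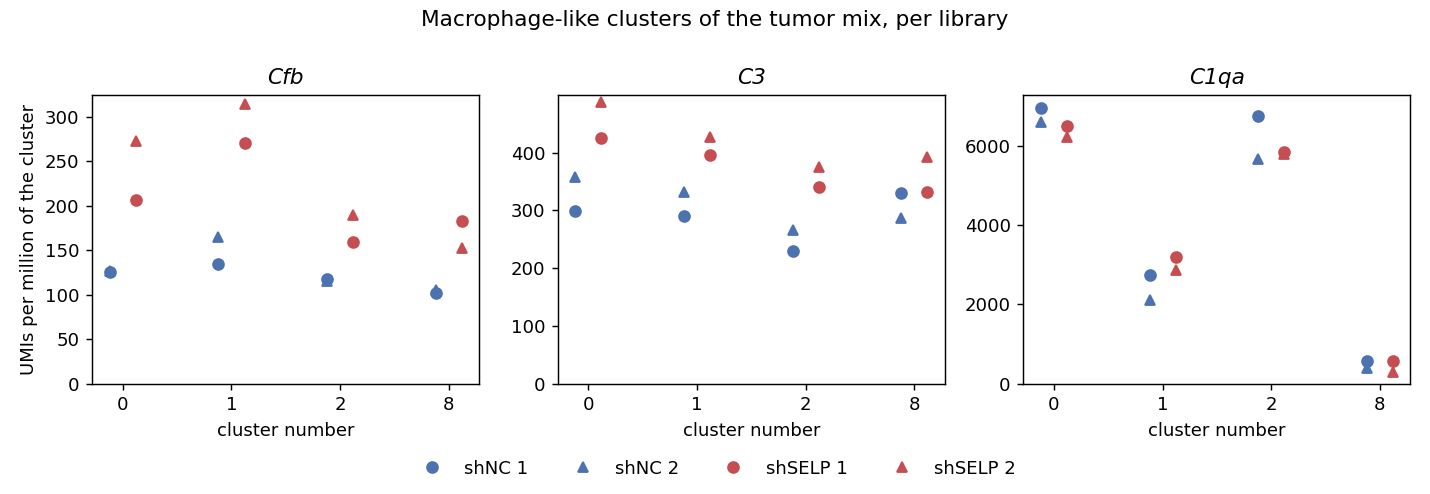
CPM of Cfb, C3 and C1qa in the macrophage-like clusters 0, 1, 2 and 8 of the mix, with 1 value per library and shNC and shSELP in separate colors. In each cluster both shSELP values of Cfb and C3 lie above both shNC values, while both shSELP values of C1qa lie above both shNC values in 1 of the 4 clusters and below them in 1, and C1qa is low in cluster 8.

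In microglia 0 of 8 tested genes was called by edgeR (Cfp was too low to test), where 0.0776% of 7727 genes were (6, with 2 higher and 4 lower). DESeq2 called 0 of the 8, of which Cfb had no adjusted p, and 32 of all genes (16 higher, 16 lower), and edgeR called 30 genes without shNC 1, 151 without shSELP 1 and 365 without shSELP 2. At an unadjusted p under 0.05 by edgeR there was 1 of the 8, where 12.9% of all genes were. This was C1qc, with 7510 and 7694 CPM in shNC and 6083 and 6392 CPM in shSELP. Both shSELP values lay below both shNC values (log2 −0.31, SE 0.11, edgeR adjusted p 0.255), and the value without shSELP 2 was −0.36 (edgeR adjusted p 0.0276), with the lone shSELP library assumed to vary like shNC. Cfb (27.0, 30.6, 28.1 and 50.6 CPM) and C3 (109.7, 92.6, 82.1 and 146 CPM) overlapped between groups, and shSELP 2 was the highest for each. Both shSELP libraries were above both shNC libraries in 2 of 3 microglia-like clusters for C3 and likewise for Cfb. Those were clusters 12 and 14, which were named on weak grounds: in cluster 12 113 of 336 cells were gated, 55.8% of them as microglia, and in cluster 14 120 of 253, with 67.5%. Cluster 9, with 387 of 402 cells gated and 98.2% of those as microglia, had no such order (C3 at 94.8, 69.3, 53.9 and 77.4 CPM, and Cfb at 25.3, 24.4, 18.0 and 34.9 CPM). These cluster values were not tested.

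Whether the response differed between microglia and macrophages was tested as an interaction. None of the 9 genes was called by edgeR, where 0.986% of 10547 genes were (104, with 49 higher and 55 lower in microglia), and DESeq2 called 0 of the 7 to which it gave an adjusted p and 20 of all genes (3 higher, 17 lower). It gave none to Cfb (unadjusted p 0.113 by DESeq2) or Cfp (0.847). Without shNC 1 edgeR called 177 genes. At an unadjusted p under 0.05 by edgeR there was 1 of the 9, where 9.41% of all genes were. This was Cfb (log2 −0.61, SE 0.28, edgeR adjusted p 0.459). A difference in the Cfb response between these classes was therefore not shown.

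In tumor cells 1 of 5 tested genes was called, where 0.104% of 9628 genes were (10, with 8 higher and 2 lower; DESeq2 40, with 25 higher and 15 lower). The 10 became 80 without shNC 1, 520 without shNC 2 and 5 without shSELP 1. C3 had 11 and 7 UMIs in shNC (2.61 and 2.37 CPM) and 22 and 39 UMIs in shSELP (33.6 and 70.6 CPM). The groups did not overlap, and C3 rose by 4.28 on the log2 scale (SE 0.43, edgeR adjusted p 0.00136), from 3.70 to 4.73 over the libraries left out, while DESeq2 gave 4.34 without an adjusted p. In thinned cells C3 had too few UMIs to be tested. The UMIs were few and concentrated: 79 UMIs in 28 of 528 cells, of which 4 cells, each from shSELP, held 49. Thinned cells with a C3 UMI made 0%, 0%, 9.76% and 5.41% of tumor cells (4.12%, 2.87%, 16.3% and 11.4% unthinned), where thinned T cells had 0.709%, 1.59%, 0.247% and 1.3%. Median depth of tumor cells was 16516, 17235, 16237 and 12499 UMIs.

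Markers of macrophages, which carry C3, were set beside this. The 8-gene macrophage list summed to 109, 62.7, 59.6 and 90.5 CPM in tumor cells, led by Lyz2 at 56.2, 28.8, 27.5 and 65.2 CPM, with 1, 0, 3 and 4 of the 8 genes at 0. These sums overlapped between groups. With cells carrying 3 or more markers of another class left out, the log2 fold change of C3 in tumor cells was 4.36 (edgeR adjusted p 0.00372), which does not remove cells with 2 macrophage markers, and the part of the list was not tested further. Of the 4 cells with the most C3 UMIs, 3 lay exactly at the gate's lead of 2 markers. The cell with 22 UMIs (shSELP 2) and a cell with 7 (shSELP 1) each had UMIs of 4 tumor markers, 2 macrophage and 2 dendritic markers, the first also of 2 oligodendrocyte markers, and another cell with 7 (shSELP 1) had 6 tumor and 4 oligodendrocyte markers. The cell with 13 UMIs (shSELP 2) had 6 tumor markers and at most 2 of any other class. C1q chains in tumor cells had log2 values from −1.35 (C1qc) to −0.70 (C1qa), and C4b had 0.20 (SE 0.20, edgeR adjusted p 0.698). Without shNC 2, with the lone shNC library assumed to vary like shSELP, C1qb was at −1.36 (edgeR adjusted p 0.0261) and C1qc at −1.89 (edgeR adjusted p 0.00242).

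In vascular cells 0 of 3 tested genes, the C1q chains, was called by edgeR, where 0.318% of 6598 genes were (21, with 1 higher and 20 lower). Before adjustment edgeR's p was under 0.05 for all 3 and for 17.1% of all genes. With DESeq2 2 of them passed, C1qb and C1qc, among 44 of all genes (15 higher, 29 lower). C1qa had 215, 1177, 148 and 45.5 CPM, so shNC 2 stood far above the rest (log2 −2.86, SE 0.75, edgeR adjusted p 0.139). The direction of the 2 chains that passed with DESeq2 turned: with classes from clusters C1qb was at 0.31 and C1qc at 0.27, and with cells that carried 3 or more markers of another class left out C1qb was at 0.67. A single shNC 2 cell held 326 of the 709 C1qa UMIs and had UMIs of 5 microglia, 3 macrophage and 7 endothelial markers. Without shNC 2 the value was −1.08, and with cells that carried 3 or more markers of another class left out it was 0.26.

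Leaving out any of the 4 libraries, so that 1 group had a lone library assumed to vary like the other, brought 2 or 3 of the C1q chains under the threshold in vascular cells: 3 without shNC 1, 2 without shNC 2, 3 without shSELP 1 and 3 without shSELP 2. Genes called among all tested numbered 100, 251, 138 and 361 in the same order. The microglia list summed to 69.8, 54.9, 29.7 and 11 CPM in vascular cells, led by Olfml3 at 46.5, P2ry12 at 25.9, and Olfml3 at 12.7 and 4.71 CPM, with 5, 3, 0 and 3 of 8 genes at 0. The macrophage list summed to 134, 346, 275 and 181 CPM, led by Lyz2 at 87.3, 126, 196 and 89.5 CPM, with 4, 1, 1 and 1 of 8 genes at 0. The microglia list was thus lower in both shSELP libraries, like the C1q chains, and its part in the result was not tested beyond leaving out cells with markers of another class.

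In neutrophils the fit had 12 shNC cells of 1 library against 25 and 17 shSELP cells, since shNC 1 had too few cells and was dropped. The lone shNC library is assumed to vary like those of shSELP, so a lack of calls here does not speak for a lack of difference. The shNC sum also differed in content. Among genes chosen after their values were seen, fitted log2 values of shSELP against shNC were −11.31 for Il4 (edgeR adjusted p 0.0548) and −8.03 for Gata2 (0.134), and 12.61 for Ngp (0.0590), 13.14 for Camp (0.0681) and 4.08 for S100a8 (0.153), none of them called. By edgeR 0 of 5 tested genes was called, with 0 at an unadjusted p under 0.05, where 0% of 1121 genes were called and 81 had an unadjusted p under 0.05. DESeq2 called 0 of the 5 and 13 of all genes. C5ar1 was found in 85.7%, 83.3%, 88.0% and 82.4% of gated neutrophils (median depths 1567, 1714, 2322 and 2646 UMIs) and in 1.32%, 2.18%, 1.90% and 1.5% of T cells, which were deeper. Thinned neutrophils with at least 2000 UMIs numbered 1, 3, 18 and 14, and C5ar1 was found in 0, 2, 10 and 11 of them.

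Of the other pathway genes, 14 were tested in macrophages, 10 in microglia, 12 in vascular cells, 9 in tumor cells and 3 in neutrophils, and 17 in the interaction. Itgax, a subunit of the complement receptor CR4, fell in macrophages from 180.2 and 165 CPM to 84.4 and 86.1 CPM (log2 −0.96, SE 0.10, edgeR adjusted p 0.0249). C1s1, a protease that joins C1q in the C1 complex, rose in tumor cells from 23.2 and 33.2 CPM to 82.6 and 101 CPM (log2 1.68, SE 0.25, edgeR adjusted p 0.0220). In both cases the groups did not overlap, and DESeq2 likewise called 1 gene in each of these classes. The C1s1 call was lost with the looser gate, with classes from clusters, in thinned cells, with cells carrying 3 or more markers of another class left out, without shSELP 1 and without shSELP 2. In microglia, vascular cells, neutrophils and the interaction edgeR and DESeq2 each called 0 genes of the list, with 4, 3, 0 and 4 at an unadjusted p under 0.05 by edgeR. Among all genes tested there, 12.9%, 17.1%, 7.23% and 9.41% were. DESeq2 gave no adjusted p to 6 of the 10 in microglia, 10 of the 12 in vascular cells and 15 of the 17 in the interaction, so it could not call these. The edgeR counts moved with a library left out, which leaves a lone library in its group, so such counts are no replicated test. No filter on low counts tests more of the list. It gave 3 of 23 in microglia (297 of 14996 among all genes) and 7 of 32 in macrophages (658 of 17099). In vascular cells it gave 3 of 27 (528 of 15478) and in tumor cells 3 of 30 (336 of 16279). The replicate block gave 1 of 12 in vascular cells (190 of 6598) and 3 of 9 in tumor cells (356 of 9628).

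The CD11b+ experiment gave the same comparison at another day in 1 library per group, so it has no test, and intervals are exact 95% Poisson intervals that cover counting error only. In macrophages (1982 shNC and 2193 shSELP cells) C3 was the gene past 1.5-fold, 1 of 9, where 14.2% of 9093 genes were past it. In microglia (140 and 109 cells) C3 was again past it, 1 of 7 with at least 50 UMIs, where 14.1% of 3322 genes were. The median log2 ratio of all genes was 0.109 in macrophages (0.0107 after TMM scaling, edgeR's scaling of library totals) and 0.0338 in microglia (−0.0403 after TMM). Among genes past 1.5-fold, 983 were higher and 304 lower in macrophages by CPM and 597 and 494 by TMM, and in microglia 276 and 191 by CPM and 215 and 251 by TMM.

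C3 had 162 CPM in shNC and 408 CPM in shSELP macrophages, a ratio of 2.52 (2.37 to 2.68), or 2.35 by TMM. A C3 UMI was found in 24.9% of shNC and 49.8% of shSELP macrophages after thinning and in 41.8% and 65.8% before it (median depths 4300.5 and 3680 UMIs, with 202 and 275 cells left out). The CD11b+ libraries held 7 and 9 T cells, too few for a share in them. In microglia C3 had 93.4 and 158 CPM, a ratio of 1.69 (1.25 to 2.30). In both classes the shSELP library was the higher. In thinned microglia C3 was at 1.38 (0.811 to 2.37) and no longer past 1.5-fold, while C4b was past it at 1.93 (1.34 to 2.79), as it was at 1.58 (1.28 to 1.96) with cells carrying 3 or more markers of another class left out.

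Cfb had 83.7 and 113 CPM in macrophages, a ratio of 1.35 (1.22 to 1.48), and Cfp had 102 and 133 CPM, a ratio of 1.3 (1.19 to 1.42). Cfb was found in 14.0% and 19.5% of thinned and 28.6% and 33.1% of unthinned macrophages. C4b had 15.5 and 23.2 CPM, with a ratio of 1.5 (1.20 to 1.87) that before rounding lay just under the fold used, and 235 and 349 CPM in microglia, a ratio of 1.49 (1.22 to 1.81). The components C3, Cfb, Cfp and C4b were each higher in the shSELP library of macrophages, by less than 1.5-fold in all but C3, and the same direction stood after TMM scaling.

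The C1q chains had the opposite direction there. C1qa had 6139 and 5257 CPM in macrophages, a ratio of 0.856 (0.846 to 0.867), with 0.775 for C1qb and 0.872 for C1qc, and in microglia the ratios were 0.918, 0.827 and 0.891. C3ar1 had 221 and 255 CPM in macrophages, a ratio of 1.15 (1.09 to 1.23), and C5ar1 had 113 and 115 CPM, a ratio of 1.01 (0.927 to 1.10) that fell to 0.945 by TMM. In microglia C3ar1 was at 1.05 (0.997 by TMM) and C5ar1 at 0.794 (0.596 to 1.05), while Cfb and Cfp had under 50 UMIs.

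Over 11 clusters of the CD11b+ cells whose gated cells were mostly macrophages, shSELP was above shNC in 11 for C3, 10 for C4b, 9 for Cfb, 9 for C3ar1, 7 for Cfp and 5 for C5ar1, and below it in 10 for each of the C1q chains. Among the 11, cluster 8 was named on weak grounds, with 47 of its 215 cells gated and 51.1% of those as macrophages. Its C4b values were low, at 3.21 CPM in shNC and 5.98 CPM in shSELP. The clusters divide the cells of 1 shNC and 1 shSELP library, so they repeat 1 comparison and are no separate test. The share of all genes with such an order over clusters was not counted.

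**Figure D3:**
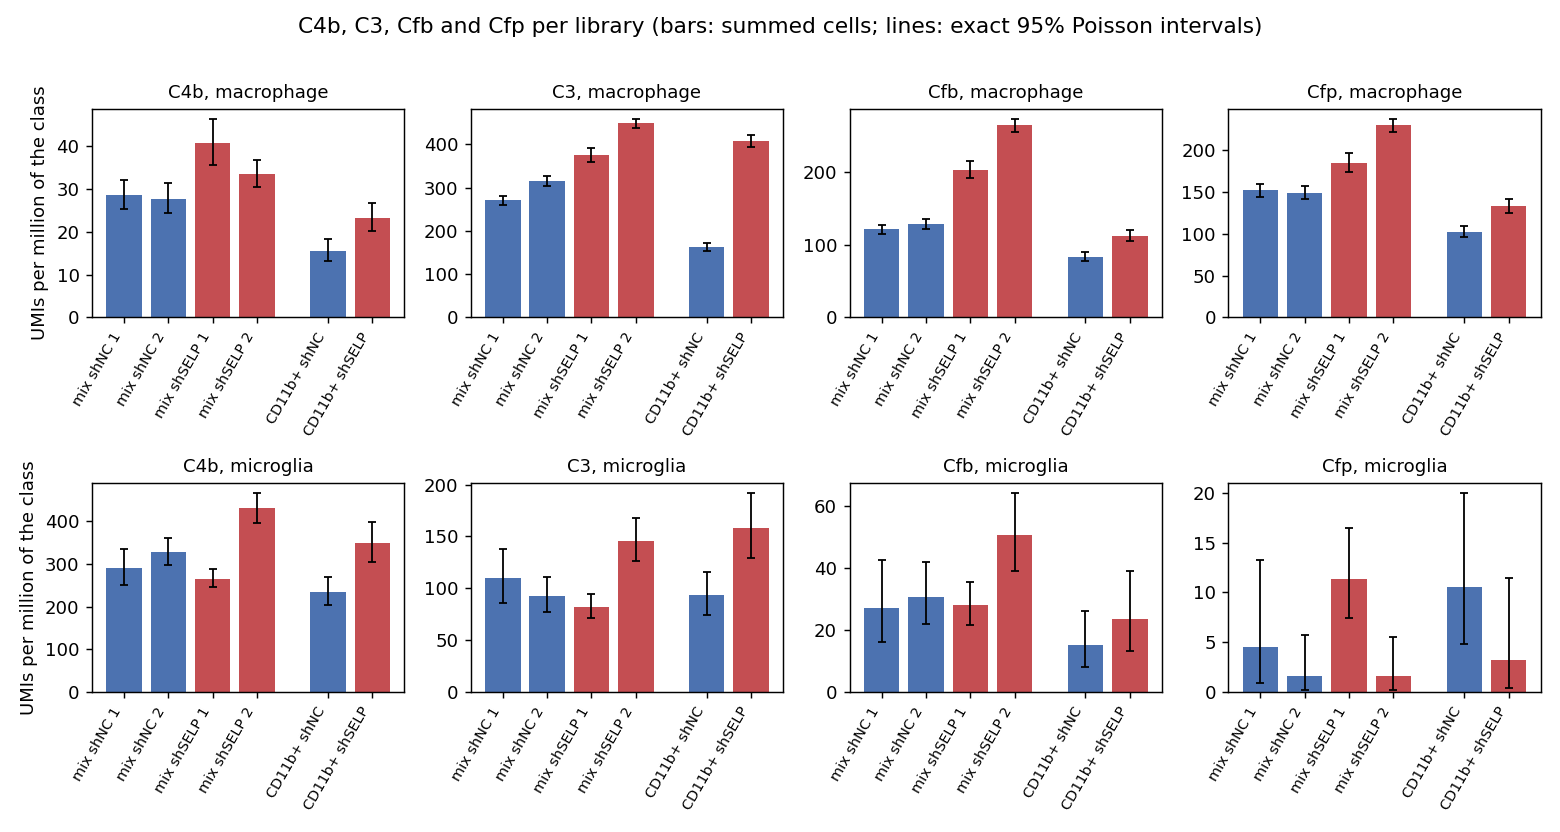
CPM of C4b, C3, Cfb and Cfp in gated macrophages (top) and microglia (bottom) of the 4 mix and 2 CD11b+ libraries, with bars from 0 and exact 95% Poisson intervals for counting error only. In macrophages the 4 genes are higher in each shSELP library than in the shNC libraries of its own experiment, and C3 has the widest gap in CD11b+ cells (162 against 408 CPM).

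The C1q genes lie side by side on chromosome 4 (mm10, minus strand): C1qa at chr4:136895917-136898803, C1qc at chr4:136889804-136893065 and C1qb at chr4:136880129-136886187, with 2851 bases between the first pair and 3616 between the second. C3 (chr17:57203970-57228136), Cfb (chr17:34856374-34862518) and C4b (chr17:34728380-34743882) are on chromosome 17, all on the minus strand. Cfp is at chrX:20925454-20931555, C3ar1 at chr6:122847138-122856161 and C5ar1 at chr7:16246743-16259540, also on the minus strand.

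Promoters of 6 of the 9 genes (C1qb, C1qc, C3, Cfp, C3ar1, C5ar1) were found in a RefSeq table of build GRCm38.p6 and searched over 250 bases before the start given there, on both strands. Those starts came from another annotation than the gene coordinates above, so the stretches searched for C1qc, C3ar1 and C5ar1 reach into the coordinates given for the gene. The letters of a PU.1 motif, GAGGAA or TTCCTC, occurred in C1qb and C1qc and in 23.3% of 32851 promoters. A C/EBP motif, TTGCNNAA or TTNNGCAA, occurred in C3 and in 9.56% of promoters. An interferon-stimulated response element motif (2.98% of promoters) and a kappaB motif (0.356%) occurred in 0 of the 6. The 3 promoters with a match are shown because C1qb and C1qc had near equal patterns over classes and C3 was higher in shSELP macrophages of both experiments; they lie on the minus strand at chr4:136886201-136886450, chr4:136892915-136893164 and chr17:57228137-57228386. Capitals mark the PU.1 letters in C1qb and C1qc and the C/EBP letters in C3, 1 match each with no other of these motifs overlapping it.
C1qb promoter: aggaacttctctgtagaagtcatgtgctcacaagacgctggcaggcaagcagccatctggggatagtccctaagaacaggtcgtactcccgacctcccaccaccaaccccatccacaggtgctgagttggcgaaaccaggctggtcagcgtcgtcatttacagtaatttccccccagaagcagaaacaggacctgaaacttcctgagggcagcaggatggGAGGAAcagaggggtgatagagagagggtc
C1qc promoter: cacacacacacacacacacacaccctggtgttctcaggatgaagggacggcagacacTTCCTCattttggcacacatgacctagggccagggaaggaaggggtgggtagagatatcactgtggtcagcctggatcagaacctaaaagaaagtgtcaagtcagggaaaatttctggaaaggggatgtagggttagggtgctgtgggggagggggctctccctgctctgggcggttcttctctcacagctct
C3 promoter: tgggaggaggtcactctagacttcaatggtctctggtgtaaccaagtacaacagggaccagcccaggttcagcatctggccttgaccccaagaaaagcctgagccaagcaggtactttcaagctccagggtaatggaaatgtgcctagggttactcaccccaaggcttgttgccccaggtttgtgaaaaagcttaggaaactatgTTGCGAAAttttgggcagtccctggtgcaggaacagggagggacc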

How the data were processed

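Counts of UMIs per gene and cell were deposited by the authors, who aligned reads to mm10 with Cell Ranger 1.3 and drew equal cell numbers per group; their limits of 500 genes or more and 10% mitochondrial UMIs or less were applied here. Groups came from the labels. UMIs were summed per library and gated class (at least 10 cells) and tested with edgeR 4.0.16 (filterByExpr, TMM scaling, quasi-likelihood test, Benjamini-Hochberg over all genes, adjusted p under 0.05), after a check on simulated counts. Tools were R 4.3.3, Python 3.11.15, scipy 1.17.1, Seurat 5.3.0 (12 and 8 components, resolution 0.8, the 9 genes left out) and scanpy 1.11.5. Scrublet marked 61 of 8726 mix cells, which were kept, and 2 of 5535 CD11b+ cells, where it did not work, so doublets were not removed.

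Alternatives were DESeq2 1.42.0, no filter on low counts, a looser gate (2 markers, lead of 1), classes from clusters, thinning to 2000 UMIs per cell, removal of Scrublet calls, a replicate block and each library left out. Leaving out cells with 3 or more markers of another class and the crossed block were added after seeing the data. Named genes were the 9 members, pathway genes called between groups or among the 3 highest of a class, the 5 most alike (at least 50 CPM), and Selp; a few genes that met this rule are not reported here. Members and lists were chosen with earlier results of these data known.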

Additional observations from a re-analysis of the deposited data

Results flagged for a closer look

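C3ar1, the C3a receptor, had opposite directions in macrophages of the 2 experiments. In the CD11b+ libraries shSELP was above shNC by a log2 value of 0.21, with 221 CPM in shNC and 255 CPM in shSELP. In the mix both shSELP libraries (183 and 191 CPM) were below both shNC libraries (225 and 213 CPM), with a log2 value of −0.22 between the means. The gap between the experiments was 0.43 on the log2 scale by CPM. In the CD11b+ macrophages the ratio of 1.15 by CPM was 1.08 (1.02 to 1.15) by TMM scaling, and the median log2 ratio of all genes there was 0.109 by CPM, so the gap would be smaller with TMM. Descriptions of 7 shSELP entries of the CD11b+ experiment name the negative control, so that direction rests on the other labels. The difference was not tested, since the CD11b+ experiment has 1 library per group.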

How the results depend on the processing

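Of the log2 fold changes of the 9 genes recomputed under alternatives, 751 kept direction and side of the threshold, 53 newly passed, 3 no longer passed and 36 changed sign. The 53 do not include C5ar1 in neutrophils against macrophages without shNC 1, which also newly passed (log2 0.92, edgeR adjusted p 0.0267). Of the counts of genes called, 59 stayed within 1.5-fold and 54 did not. For each value that follows the cause was not tested. Between groups 3 of the 9 genes could be tested in vascular cells and 5 in neutrophils and in tumor cells. With a library left out, the lone library of its group is assumed to vary like the other group.

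Genes called between shSELP and shNC in macrophages (46) were 126 with DESeq2, 17 in thinned cells, 20 without cells carrying 3 or more markers of another class, 658 with no filter on low counts and 34 to 153 with a library left out. In microglia (6) they were 32 with DESeq2, 32 without cells carrying other markers, 12 with classes from clusters, 58 with the looser gate, 297 with no filter and 7 to 365 with a library left out. In neutrophils (0; 81 at an unadjusted p under 0.05 by edgeR) they were 13 with DESeq2, 37 without cells carrying other markers, 8 with the looser gate and 33 with no filter. In vascular cells (21) they were 44 with DESeq2, 49 without Scrublet calls, 6 in thinned cells, 69 without cells carrying other markers, 0 with classes from clusters, 6 with the looser gate, 528 with no filter and 100 to 361 with a library left out. In tumor cells (10) they were 40 with DESeq2, 25 in thinned cells, 16 without cells carrying other markers, 5 with classes from clusters, 336 with no filter and 5 to 520 with a library left out. For the interaction (104) they were 20 with DESeq2, 7 in thinned cells, 43 with the looser gate, 167 with no filter and 100 to 177 with a library left out. Against macrophages, thinned cells gave 2438 genes in microglia, 963 in neutrophils, 4989 in vascular and 5190 in tumor cells, and neutrophils had 1427 to 1700 with a library holding a neutrophil sum left out and 2112 without shNC 1, which had none.

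Calls among all genes tested in the same setting are given in brackets after each number. Of the 9 genes, those called in microglia against macrophages (4) were 8 in thinned cells (2438 of 9398) and 8 without cells carrying other markers (4116 of 11812). They were 7 with classes from clusters (4132 of 12840) and 8 with no filter (4203 of 19299). Between groups in macrophages (1) they were 3 with DESeq2 (126 of 10864), 0 with the looser gate (32 of 11056) and 4 with no filter (658 of 17099). In tumor cells (1) they were 0 in thinned cells (25 of 3541), where C3 was not tested, and 2 with no filter (336 of 16279). In vascular cells (0) they were 2 with DESeq2 (44 of 6598), 2 without Scrublet calls (49 of 6506) and 4 with no filter (528 of 15478). With a library left out, the numbers between groups moved in macrophages, tumor cells, vascular cells and microglia (0).

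Replicate numbers were shared by groups, but same-numbered libraries did not deviate together (correlations of 0.13 in microglia, −0.26 in macrophages, 0.06 in vascular, 0.02 in tumor and −0.03 in T cells), so they share only a number. With the replicate block, genes called were 78 in macrophages, 190 in vascular and 356 in tumor cells, 0 for the interaction with that block in place of the library, and 3 of the C1q chains in vascular cells. The crossed replicate numbers as a block gave 132 genes in macrophages.

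Sign changes between groups with a library left out were in macrophages C1qa (−0.17 to 0.16), C1qb (−0.05 to 0.20), C1qc (−0.18 to 0.04) and C5ar1 (−0.07 to 0.20), in microglia C4b (−0.27 to 0.47), C3 (−0.32 to 0.54) and Cfb (−0.10 to 0.79), in tumor cells C4b (−0.04 to 0.40), and in the interaction C1qb (−0.28 to 0.03), C4b (−0.84 to 0.14), Cfp (−1.46 to 1.72) and C3ar1 (−0.30 to 0.18). In thinned cells the log2 value was 0.02 for C1qa in macrophages, 0.01 for C1qb, −0.25 for C3 and 0.12 for C3ar1 in microglia, −0.03 for C4b in tumor cells and 0.36 for C3ar1 in the interaction. With classes from clusters C1qa, C1qb and C1qc were at 0.61, 0.31 and 0.27 in vascular and 0.38, 0.37 and 0.18 in tumor cells, C4b was at −0.15 in tumor cells, and in the interaction C4b was at 0.12 and Cfp at −0.14. Without cells carrying other markers C1qa was at 0.26 and C1qb at 0.67 in vascular cells, C1qb at −0.39 in neutrophils and C3ar1 at 0.06 in the interaction. With the looser gate C4b was at −0.05 in tumor cells and Cfp at −0.06 in the interaction, and with DESeq2 C5ar1 in microglia against macrophages was at 0.10. In CD11b+ cells 15 ratios moved past their interval and 65 did not, and C4b in macrophages, at 1.5, was 1.88 in thinned cells.

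The neutrophil comparison of groups could not be fitted with the replicate block, classes from clusters, thinned cells, or without shNC 2, shSELP 1 or shSELP 2, and the neutrophil contrast could not be fitted with classes from clusters. No Scrublet alternative was run in CD11b+ cells.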

Other observations

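Classes outside the 5 examined also carried complement transcripts. Oligodendrocyte-like gated cells had C4b at 1313, 1495, 967 and 1436 CPM in shNC 1, shNC 2, shSELP 1 and shSELP 2, from 5, 23, 19 and 18 cells, above the tumor and microglial values of each library. Dendritic-like gated cells had Cfp at 151, 141, 137 and 143 CPM in the mix, from 58, 85, 53 and 101 cells, and at 294 and 95.1 CPM in the CD11b+ shNC and shSELP libraries, from 27 and 29 cells, of which 23 and 21 lay exactly at the gate limit. The mix values of Cfp overlapped between groups.

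The share of C1qb among C1q UMIs differed between groups, while that of C1qa overlapped between groups in mix microglia and macrophages. In mix microglia C1qb made 29.2% and 30.3% of C1q UMIs in shNC and 33.3% and 32.1% in shSELP, and in macrophages 33.6% and 34.0% against 35.2% and 35.6%. Both shSELP libraries were above both shNC libraries in each class. In CD11b+ cells the order was the other way, with 36.1% in shNC and 33.7% in shSELP macrophages, and 31.3% in shNC and 29.4% in shSELP microglia. These shares were not tested.

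Detection of C3 and Cfb in single macrophages was compared at 2000 UMIs per cell. A C3 UMI was found in 52.4%, 45.1%, 49.7% and 57.3% of macrophages with a Cfb UMI and in 32.6%, 40.5%, 44.8% and 45.9% of those without. In CD11b+ macrophages it was 28.9% against 24.3% in shNC and 53.7% against 48.9% in shSELP. The exact 95% binomial intervals of the 2 shares did not overlap in shNC 1 and shSELP 2 of the mix and overlapped in the other libraries of both experiments. A Cfp UMI was found in 23.2%, 18.3%, 24.5% and 24.7% of mix macrophages with a Cfb UMI and in 22.9%, 20.2%, 24.4% and 32.9% of those without.

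Limits are few libraries and unknown pools. With 2 libraries per group the spread of a class rests on 4 sums, and 1 library changed several calls. The CD11b+ experiment has no replicates and differs from the mix in sorting, day and depth at the same time, so these cannot be told apart. Gated classes rest on 8 markers each. Free RNA and doublets can add UMIs to a class, and the amount of free RNA was not measured. C4b and Cfb counts are uncertain through a near-identical copy and a close neighbour. Counting at 3' ends says nothing about protein or cleavage, on which complement activity depends.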
